A study of Mus musculus with 7 samples.

Results

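The genes described here are the Mettl21 lysine methyltransferases Mettl21a, Mettl21c, Vcpkmt (also named Mettl21d) and Mettl21e, together with Vcp, the substrate of Vcpkmt. They were measured in quadriceps muscle of AR113Q and WT mice, in a study of spinal and bulbar muscular atrophy (SBMA), the disease caused by expansion of the polyglutamine tract of the androgen receptor. Members were the non-control probes whose gene name, current symbol or synonym was one of these 5 genes of 31044 on the array, which gave 6 probes of 39429. The group was chosen by the low signal of Mettl21c in AR113Q muscle on these same arrays. The genotype differences of the members are therefore given as a description, with no test, and support nothing further.

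The array set held 4 WT and 3 AR113Q mice on the C57BL/6 strain, both genotypes at an age of 3 months, and each mouse was hybridised to 1 single-colour (Cy3) Agilent mouse array. AR113Q mice carry a knock-in of a humanized androgen receptor gene with 113 CAG repeats, so no separate promoter restricts the allele to muscle, and the study places this age before the onset of motor dysfunction. The labels and legends name the controls as WT, while the results text of the study describes them as a knock-in strain carrying a shorter repeat, and the files do not settle this. Whole muscle was used, so less RNA per fiber and fewer fibers of a type cannot be told apart.

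Lysine methyltransferases of this family transfer methyl groups from S-adenosylmethionine to single lysines of particular proteins, many of them chaperones and other ATPases. METTL21A methylates chaperones of the HSP70 family, METTL21C is found mainly in skeletal muscle and has been reported to methylate alanyl-tRNA synthetase, and VCPKMT trimethylates a lysine of VCP. VCP, also called p97, is an AAA ATPase that pulls ubiquitinated proteins out of complexes and membranes for the proteasome and for autophagy, and mutations in it cause an inclusion body myopathy.

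One oligonucleotide carries the largest difference of the group, the probe of Mettl21c, and its sequence is shown because the whole Mettl21c result rests on it. It lies in the mRNA, on mm9 at chr1:44067388-44067447, minus strand. The capitals mark bases 29 to 43, counted from 1 at the 5′ end, where a reading frame without a stop codon has glycine codons at every other position, the pattern of the loop with which methyltransferases of this class hold S-adenosylmethionine.
Mettl21c probe: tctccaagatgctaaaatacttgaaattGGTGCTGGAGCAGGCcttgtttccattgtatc

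All 7 arrays had 44397 spots, between 18785 and 22013 probes well above background and 0 saturated spots. A level below is log2 of the background-subtracted intensity after quantile normalization, which gives all arrays the same distribution, and a difference is AR113Q minus WT on that scale. Testing required a signal well above background on 3 or more arrays, a filter that 20991 probes passed, all 6 probes of the members among them. A gene or probe was called where limma's Benjamini-Hochberg adjusted p over all probes tested was at most 0.05 and the difference was at least 1 in size. By this rule 12.6% of all probes were called lower and 12.2% called higher in AR113Q. By adjusted p alone 21.6% were lower and 22.2% higher, and on 49.6% of all probes the arrays of the genotypes did not overlap. No call is given for the members. Of their 6 probes, 3 had genotypes that did not overlap, and nothing is read from this count.

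Mettl21c had the largest difference of the 5 genes. Its level was 13.01, 12.60, 13.14 and 12.73 on the WT arrays of replicates 1 to 4, and 7.91, 8.25 and 7.88 on the AR113Q arrays of replicates 1 to 3. All AR113Q arrays lay far below all WT arrays, and no array departed from its own genotype. The means were 12.87 ± 0.25 (SD, n = 4) and 8.01 ± 0.21 (SD, n = 3), a difference of -4.85 with an SE of 0.19, or 28.9-fold. Before normalization the intensity was 5344 to 8063 in WT and 276 to 412 in AR113Q, and every array was well above background, so the transcript was low and still detected. Ordered from the most negative difference, it stood at place 11 of 20991 probes. The slide that held an array of each genotype gave -4.69.

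Mettl21e, a muscle gene of the mouse whose human counterpart is a pseudogene, lay near the detection limit and differed the other way. Its level was 2.94, 3.59, 3.99 and 1.82 in WT and 4.31, 6.79 and 6.71 in AR113Q (chr1:44260918-44260977, mm9). The genotypes did not overlap, but only 1 of 4 WT arrays and 2 of 3 AR113Q arrays were well above background, so the probe passed the filter on exactly 3 arrays. The means were 3.09 ± 0.95 (SD, n = 4) and 5.94 ± 1.41 (SD, n = 3), a difference of 2.85 with an SE of 0.70. Intensities before normalization were 3.86 to 14.9 in WT and 16.6, 145 and 118 in AR113Q. AR113Q replicate 1, at 16.6, lay close to the brightest WT arrays. The difference shrank to 0.66 with another background correction (normexp), to 0.65 without background subtraction and to 0.72 on the slide with both genotypes.

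Vcpkmt, the methyltransferase of VCP, had overlapping levels in the genotypes. Its level was 8.61, 8.49, 8.44 and 8.42 in WT and 8.51, 8.51 and 8.17 in AR113Q (chr12:70678639-70678698, mm9). Only the AR113Q replicate 3 lay below the WT arrays, and the difference of -0.09 was smaller than its SE of 0.16.

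Mettl21a, the HSP70 methyltransferase, had 2 probes, both with overlapping genotypes. The brighter (chr1:64653686-64653745, mm9) read 9.11, 9.39, 9.28 and 9.24 in WT and 9.50, 9.42 and 8.42 in AR113Q, a difference of -0.14 with an SE of 0.27. The dimmer (chr1:64653080-64653139, mm9) read 5.25, 5.76, 5.91 and 5.37 in WT and 5.75, 5.90 and 4.85 in AR113Q, a difference of -0.07 with an SE of 0.29. The probes moved together over the arrays (r = 0.89, n = 7), and on both the lowest array was AR113Q replicate 3, as it was for Vcpkmt. The sign of both Mettl21a differences turned positive (0.21 and 0.26) without AR113Q replicate 3 alone. They were 0.29 and 0.52 without the 3 arrays high in slow fiber genes, described below, of which that array is one.

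Vcp was higher in every AR113Q mouse than in any WT mouse. Its level was 13.86, 13.99, 13.99 and 13.91 in WT and 14.98, 14.70 and 14.41 in AR113Q. The WT arrays lay within a narrow band, and the lowest AR113Q array was above all of them. The means were 13.94 ± 0.066 (SD, n = 4) and 14.70 ± 0.28 (SD, n = 3), a difference of 0.76 with an SE of 0.17, or 1.70-fold. On the slide with both genotypes the difference was 0.99. The array annotation places this probe at chrX:101540709-101540768 on mm9, while the Vcp gene lies on chromosome 4 and RefSeq lists a Vcp-related sequence on chromosome X, so the signal may come from either copy.

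**Figure D1:**
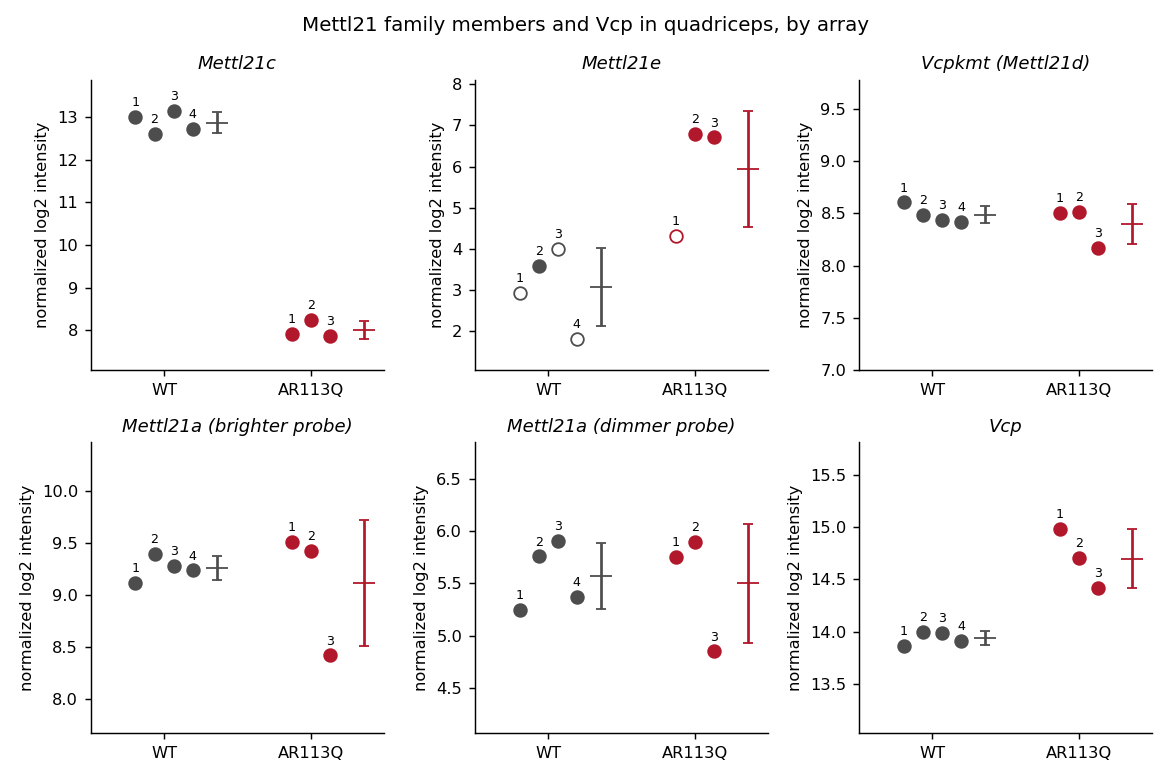
Level of each member probe (normalized log2 intensity, vertical axis) on the WT and AR113Q arrays, with replicate numbers beside the points, open points for arrays not well above background, and bars for the mean ± SD of 4 WT and 3 AR113Q mice. Mettl21c separated the genotypes by 4.85 on the log2 scale, Vcp by 0.76, and Vcpkmt and both Mettl21a probes overlapped.

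VCP works through cofactors that bring it to its substrates, and many of these were higher in AR113Q muscle. Of 33 listed cofactors, 27 were tested, and 9 were called higher and 0 called lower, where 11.2% of all genes were called higher and 13.1% lower (each gene by its brightest probe). By adjusted p alone 13 were higher and 4 lower, against 21% and 22.5% of all genes. The median difference of the 27 genes was 0.44, and that of all genes -0.012. The count of 9 was 7 to 11 when single arrays were left out and 10 on the 4 arrays low in slow fiber genes. It was 8 (without Sprtn) among probes well above background on all 7 arrays. With normexp it was 6, without background subtraction 6 and on the authors' normalized values 5. Over all probes the calls higher fell too, from 2555 of 20991 to 982 with normexp and 1067 without background subtraction. They were 735 of 18592 on the authors' values. With slide as a fixed term, where the 1 pair of arrays on a shared slide carries the genotype, 0 genes of this or any other list were called.

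Ufd1 and Nploc4 form the heterodimer with which VCP recognises ubiquitin chains. Nploc4 was 10.99, 10.99, 11.13 and 11.03 in WT and 13.79, 12.60 and 12.59 in AR113Q. Every AR113Q array lay over 1 unit above every WT array, and the level rose by 1.96 (SE 0.29, adjusted p = 0.00138 in limma). Ufd1 was 11.32, 11.31, 11.54 and 11.43 in WT and 12.93, 12.50 and 12.44 in AR113Q, and rose by 1.22 (SE 0.17, adjusted p = 0.00108 in limma). A second, dimmer Ufd1 probe rose by 1.33. Nsfl1c, which encodes the alternative core adaptor p47, was higher by 0.77 (SE 0.21, adjusted p = 0.0179 in limma), under the fold threshold. On each of the 3 genes the highest AR113Q array was replicate 1, which was also the highest for Vcp.

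Among the other cofactors, Sprtn, a protease of DNA-protein crosslinks, was 3.44 ± 1.12 in WT (SD, n = 4) and 5.77 ± 0.30 in AR113Q (SD, n = 3). Only 1 of 4 WT arrays was well above background, so it passed the filter through the AR113Q arrays, and its call was lost with normexp or without background subtraction. Aspscr1, an adaptor with a UBX domain that binds VCP, rose by 1.87 (SE 0.36, adjusted p = 0.00398 in limma). The remaining called genes, named after their values were seen, were Ankzf1 of ribosome quality control, the UBX adaptors Faf2, Ubxn8 and Ubxn7, and Ube4b, which extends ubiquitin chains. Their differences were 1.02 to 1.46, and dimmer probes of Ube4b, Faf2 and Ubxn7 gave 3.23, 0.90 and 0.89, the last pair under the fold threshold. Ubxn7, at 1.02, passed the call rule under only 12 of 21 alternatives. Selenos and Syvn1, which act with VCP in the degradation of endoplasmic reticulum proteins, and the deubiquitinase Yod1 passed the adjusted p alone at 0.91, 0.80 and 0.72, and a dimmer Syvn1 probe gave 0.06. Svip, a small VCP-binding inhibitor of that pathway, went the other way, at -0.94 (adjusted p = 0.00949 in limma). The UBX adaptors Ubxn11 and Ubxn2a and the zinc finger gene Zfand1 were also lower by adjusted p alone, at -0.82, -0.61 and -0.77.

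Of the 6 measured AAA ATPases related to VCP, 3 were called higher and 0 lower, against 11.2% and 13.1% of all genes. Without Nvl, described below, 2 were called. Spata5l1 rose by 1.33 (adjusted p = 0.00498) and Spata5 by 1.13 (adjusted p = 0.00151 in limma), and both act in ribosome biogenesis. A dimmer Spata5 probe gave 0.97, just under the fold threshold. Nvl, which shares that role, passed the filter through the AR113Q arrays alone, since no WT array was well above background, and was at least 1.75-fold higher in AR113Q (means 2.78 and 4.62), where the bound sets each WT array at the lowest level that was well above background on it. Nsf, which drives membrane fusion, differed by 0.27, and Pex6, which acts in peroxisome assembly, by -0.07, without passing the test. A dimmer Pex6 probe gave 0.82 (adjusted p = 0.0120 in limma), so the Pex6 probes disagreed. The median difference of the 6 genes was 0.70, or 0.54 with Nvl at its bound. With normexp background correction, without background subtraction or on the authors' values, 0 of the 6 were called.

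**Figure D2:**
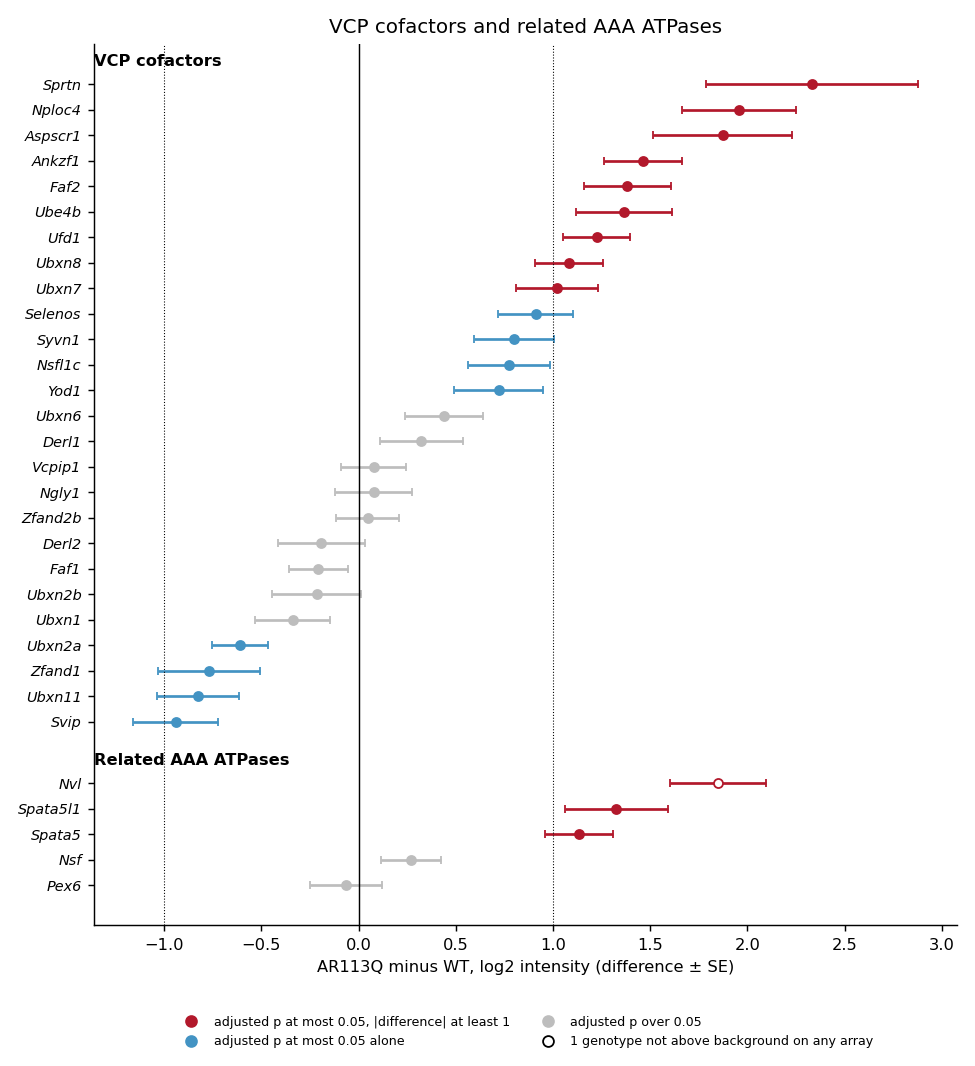
AR113Q minus WT difference (log2 intensity, horizontal axis, ± SE) of 26 of the 27 VCP cofactors and 5 of the 6 related AAA ATPases tested, coloured by whether limma's adjusted p and the fold threshold were passed, with dotted lines at -1 and 1. The 9 called cofactors all lie to the right of 1, and Svip has the lowest difference, -0.94.

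Upstream sequence is shown for Vcp, the gene named by the array, although its probe may not tell it from the copy on chromosome X. It covers the 250 bases before the transcription start in RefSeq (GRCm38.p6, chr4:43000508-43000757, minus strand). Both strands were searched for 2 motifs, and they do not share letters in any window described here. They were the antioxidant response core TGACNNNGC, found in 10.2% of 32851 windows of this length, and the endoplasmic reticulum stress element, CCAAT and CCACG with 9 bases between them, found in 0.113%. The motifs were chosen with the results known. Capitals mark the 1 match in the Vcp window, to the antioxidant response core.
Vcp upstream: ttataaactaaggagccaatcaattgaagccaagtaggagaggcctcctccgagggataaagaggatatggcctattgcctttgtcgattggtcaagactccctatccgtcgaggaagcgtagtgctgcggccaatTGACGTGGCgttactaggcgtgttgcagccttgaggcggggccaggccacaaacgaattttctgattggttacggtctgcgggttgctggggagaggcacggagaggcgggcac
The windows of Ufd1, Nploc4, Nsfl1c, Selenos, Vcpkmt and Mettl21a held 0 matches to either motif. The window of Aars held 1 match to the antioxidant response core. The stress element was found in Syvn1 and in Hspa5, the endoplasmic reticulum chaperone described below, and capitals mark its fixed letters.
Hspa5 (chr2:34772025-34772043): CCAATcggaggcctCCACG
Syvn1 (chr19:6046532-6046550): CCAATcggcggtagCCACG
A match is a run of letters and not a measured binding site. Mettl21c and Mettl21e had no entry in the table used.

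Related methyltransferases, a list wider than the Mettl21 family itself, were mostly lower in AR113Q muscle. Of 13 listed, 11 were tested, 4 were called lower and 0 higher, against 13.1% and 11.2% of all genes. Without Camkmt, described below, 3 were called lower. By adjusted p alone 8 were lower and 1 higher, against 22.5% and 21%, with a median difference of -0.74 against -0.012 for all genes. Mettl18, a histidine methyltransferase of a ribosomal protein, was 9.03, 8.85, 9.02 and 8.94 in WT and 7.05, 7.41 and 7.30 in AR113Q. The genotypes were well separated, and the level fell by 1.71 (SE 0.15, adjusted p = 0.000191 in limma). A second Mettl18 probe gave -1.61. Eef1akmt1, which methylates the elongation factor eEF1A, fell by 1.19 (SE 0.16, adjusted p = 0.000909 in limma). Camkmt, the calmodulin methyltransferase, was well above background on 3 of 4 WT arrays and on 0 of 3 AR113Q arrays, and was at least 1.70-fold lower in AR113Q (means 4.42 and 2.41). It thus passed the filter through WT arrays alone, and its call was also lost with normexp or without background subtraction. Mettl23 was the fourth gene called, at -1.17, and lost the call without AR113Q replicate 1. Eef1aknmt, another eEF1A methyltransferase, was the 1 gene higher by adjusted p alone, at 0.90. Etfbkmt, which acts on the electron transfer flavoprotein, gave 0.48 by its brightest probe (adjusted p = 0.0592 in limma), while its dimmer probe rose by 1.57 (adjusted p = 0.0020 in limma). Eef1akmt3, or Mettl21b, was not matched to a probe.

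The substrates of the Mettl21 enzymes and their relatives showed no common direction. Of 15 tested, 2 were called lower and 0 higher, against 13.1% and 11.2% of all genes, and 3 were lower and 3 higher by adjusted p alone, with a median difference of 0.12. Aars, which encodes alanyl-tRNA synthetase, was 12.15, 12.20, 12.18 and 12.13 in WT and 13.40, 12.68 and 13.01 in AR113Q. All AR113Q arrays lay above the narrow WT band, with a difference of 0.87 (SE 0.19, adjusted p = 0.00727 in limma), under the fold threshold. Hspa5, the HSP70 chaperone of the endoplasmic reticulum, had a difference of 0.96 (SE 0.22, adjusted p = 0.00807 in limma). Hspa8, the constitutive HSP70 of the cytosol, gave -0.13 (SE 0.19, adjusted p = 0.621 in limma), and its other 2 probes gave -0.04 and 0.08. Calm2, which encodes calmodulin, the substrate of Camkmt, fell by 1.60 (SE 0.22, adjusted p = 0.000897 in limma). A second Calm2 probe gave -1.77. Calm3, which also encodes calmodulin, had a difference of -0.85 (adjusted p = 0.0121 in limma).

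**Figure D3:**
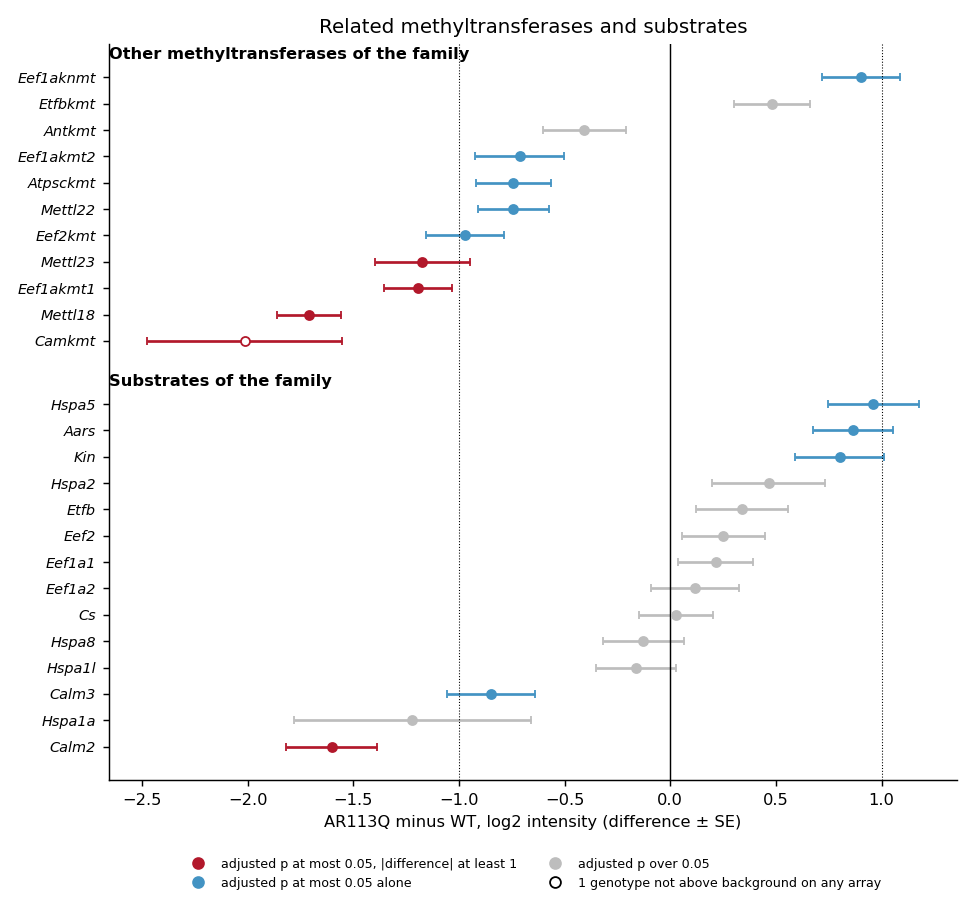
AR113Q minus WT difference (log2 intensity, horizontal axis, ± SE) of 11 related methyltransferases and 14 of the 15 substrates tested, coloured as for the VCP cofactors. Camkmt is drawn open because no AR113Q array was well above background, and Calm2 is the lowest substrate, at -1.60.

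The genes beside Mettl21c did not share its difference. Mettl21c and Mettl21e lie near each other on chromosome 1, with 5 protein-coding genes between them in the RefSeq order. On one side of Mettl21c, the peptidase gene Tpp2 had a difference of 0.25 (adjusted p = 0.211 in limma). On the other side the nearest measured gene, Tex30, rose by 1.09 (SE 0.18, adjusted p = 0.00188 in limma). Ercc5, a nuclease gene of DNA repair that lies next to Mettl21e, rose by 1.20 (SE 0.19, adjusted p = 0.00193 in limma), while its second probe was well above background on only 2 of 4 WT arrays. Gulp1, beyond Mettl21e, differed by -0.86 (adjusted p = 0.0925 in limma). Arf6 beside Vcpkmt passed the adjusted p alone at 0.83, while Sos2 on its other side, at -0.34, and Creb1 and Ccnyl1 beside Mettl21a, at 0.06 and -0.34, did not pass it. Another Ccnyl1 probe gave 0.43, also without passing it, and the third was well above background on no WT array. Neither gene beside Vcp, 1700022I11Rik and Fancg, passed the filter.

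By Pearson correlation over the 7 arrays, the 5 genes with a pattern most like Mettl21c included Golm1 (r = 0.999), Lman1, Ccnd1 and Trmt12, with differences of -2.70, -1.13, -3.85 and -2.28. Those most like Vcp were a transcript without a gene symbol, Ctps2, Tmem131, Eapp and Rnf20, with r of at least 0.997 and differences of 1.58, 1.93, 0.86, 1.38 and 0.73. The points share the split between genotypes. With genotype means removed, the highest r between members was 0.90, for Vcp and the brighter Mettl21a probe. The lowest was -0.51, for Vcp and Mettl21e. Mettl21c and Mettl21e had 0.39, and Vcp and Mettl21c 0.01.

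Levels of fiber genes and of other cell types varied beside these results, and their part in them was not tested. The summed slow fiber level was 15.2, 15.3 and 16.6 on WT replicates 2 and 3 and AR113Q replicate 3, and 12.7 to 12.9 on the other 4 arrays. This split ran through both genotypes and Mettl21c did not follow it. On the 4 low arrays alone (2 of each genotype), the difference of Mettl21c was -4.79 and that of Vcp 0.96. Among 11 slow fiber genes, 1 was called, Atp2a2, the slow calcium pump, which rose by 1.42 (adjusted p = 0.0246 in limma) and passed the call rule under 14 of 21 alternatives, where 11.2% of all genes were called higher. Myl2 had the lowest difference, -1.28, without passing the test. Among 14 fast fiber genes 3 were called lower, where 13.1% of all genes were, and Casq1, which encodes the calcium-binding calsequestrin of fast fibers, fell by 3.05 (SE 0.37, adjusted p = 0.000607 in limma). The highest difference was 0.31, for Myh1. Of 7 myofiber markers, among which Myh4, Tnnt3 and Pvalb also stand in the fast fiber list, 0 were called. Ckm passed the adjusted p alone at -0.80 (adjusted p = 0.0101 in limma). Acta1 gave -0.60 and Des, the highest, 0.41, both without passing it. Here and for the cell types below, 13.1% of all genes were called lower and 11.2% higher. Of 5 adipocyte markers 3 were called lower, and their summed level was 14.9 to 15.4 in WT and 14.8 in AR113Q. That sum rests on the bright probe of Fabp4 (-0.21), while the other 4 markers had differences of -1.02 to -2.71 and the median of the 5 was -1.04. Of 4 Schwann cell markers 2 were called lower, with summed levels of 10.1 to 11.5 in WT and 9.48 to 9.60 in AR113Q. Mbp, another of them, went the other way, at 0.56 (adjusted p = 0.0224 in limma). Of 5 fibroblast markers 2 were called lower, with summed levels of 16.0 to 16.2 in WT and 16.1 to 16.6 in AR113Q. That sum rests on the bright probe of Dcn (0.41), while the other 4 markers had differences of -0.27 to -3.27 and the median of the 5 was -0.96. Of 6 macrophage markers 2 were called lower and 2 higher, with summed levels of 12.6 to 13.4 in WT and 12.3 to 12.6 in AR113Q. Of 5 endothelial markers 1 was called lower (summed levels of 12.3 to 12.6 and 11.6 to 12.2), as was 1 of 3 satellite cell markers (10.3 to 10.8 and 9.96 to 10.5). The endothelial call was Vwf, at -1.05, while Pecam1 went the other way, at 0.60 (adjusted p = 0.0189 in limma). Of 3 erythrocyte genes 0 were called, and their summed level was highest on WT replicates 3 and 4, at 16.9 and 17.7, against 15.4 to 15.8 elsewhere.

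**Figure D4:**
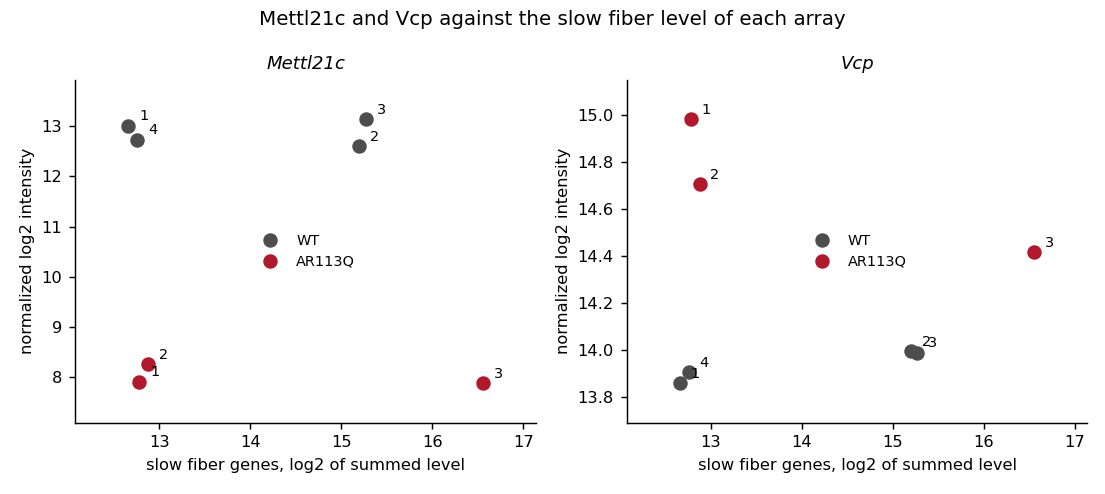
Level of Mettl21c and Vcp (normalized log2 intensity, vertical axes) against the log2 of the summed level of 11 slow fiber genes on each array (horizontal axes), with replicate numbers beside the points. The slow fiber level separates 3 arrays from 4 in both panels, while Mettl21c and Vcp separate WT from AR113Q.

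**Figure D5:**
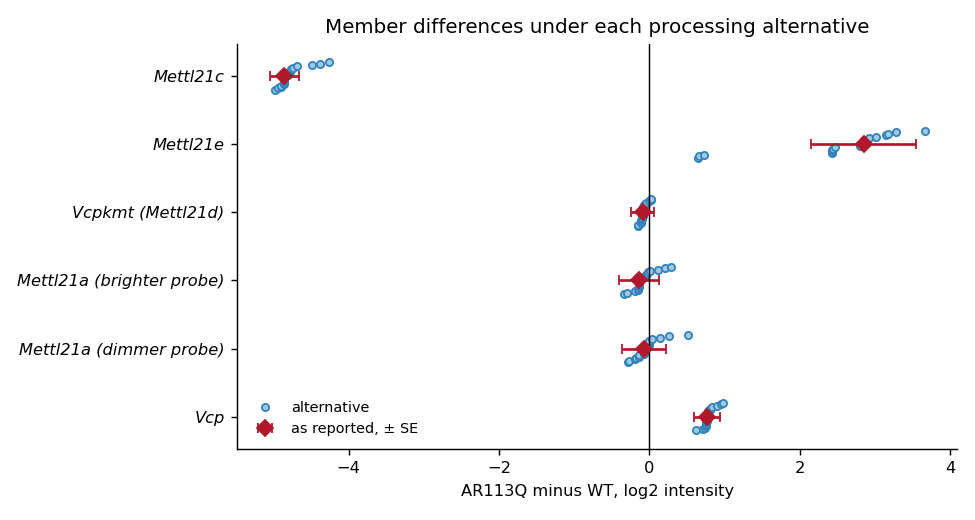
AR113Q minus WT difference of each member probe (log2 intensity, horizontal axis) as reported (diamonds, ± SE) and under each processing alternative (circles). Mettl21c stayed between -4.97 and -4.26 and Vcp between 0.62 and 0.99, Mettl21e spread from 0.65 to 3.66, and Vcpkmt and Mettl21a lay on both sides of 0.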

How the data were processed

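Quadriceps RNA of 7 mice was hybridised to Agilent single-colour arrays, and the authors extracted spots with Feature Extraction 10.7.3.1. The scanner files deposited by the authors hold intensity per spot, background-subtracted and not normalized between arrays, and a table the authors deposited holds log2 values that the methods describe as quantile normalized. Here log2 of the intensity was quantile normalized over 43020 non-control spots without outlier-flagged spots, and spots were averaged per probe. RefSeq accessions named 28330 of 39429 probes. Probe positions are on mm9, while gene order and promoters are from GRCm38.p6.

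The test of AR113Q against WT was limma's (version 3.58.1, R 4.3.3; lmFit, eBayes) with Benjamini-Hochberg adjustment over all kept probes, and it was tested on simulated data. The number of arrays limits the precision. The members and gene lists were chosen with earlier results of these data known. In each list the 3 called genes with the largest rise and the 3 with the largest fall were named, with Ufd1, Nploc4, Nsfl1c, Hspa8, Aars and Eef1akmt3, the genes beside the members, 5 most like Mettl21c and Vcp, and the extremes of the fiber lists. Other genes were named after their values were seen, and a few that the rule takes are not reported here. Arrays were on 5 slides with 1 scan date. Alternatives covered scaling, background, filters, slide, replicate block and left-out arrays.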

Additional observations from a re-analysis of the deposited data

Results flagged for a closer look

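Among 62 probes of the members and pathway lists, 3 had 1 WT array whose gap to the nearest array took up more of the range of the 4 WT arrays than Dixon's critical value, and chance flags about 1 in 20 such groups. The ratio was 0.844 for Derl2 (replicate 4), 0.864 for Eef1aknmt (replicate 3) and 0.850 for Zfand1 (replicate 3). No member probe was among them.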

How the results depend on the processing

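Over 21 alternatives at most, Mettl21c stayed negative and Vcp and Mettl21e positive, while Vcpkmt turned positive in 2, the brighter Mettl21a probe in 4 and the dimmer in 5 of 20. Normexp background correction gave 2088 probes called in place of 5208, 0 related ATPases, -4.39 for Mettl21c and 0.66 for Mettl21e. Without background subtraction these were 2264, 0, -4.48 and 0.65. The authors' values gave 1592 probes, 5 VCP cofactors, 0 related ATPases and -4.26 for Mettl21c, and hold no Mettl21e value. Adjusted p alone gave 9199 probes, 9 relatives, 6 substrates and 17 cofactors. A fixed slide term, under which 1 pair of arrays carries the genotype, left limma with few degrees of freedom, and it called 0 probes (7928 at unadjusted p of at most 0.05) and 0 genes in all 6 pathway and fiber lists, with 0.99 for Vcp and 0.72 for Mettl21e. Slow fiber calls were 0 without the filter on dim probes and 0 with array weights. On the 4 arrays low in slow fiber genes, an alternative chosen after seeing the data, slow fiber calls were 3, Vcp was 0.96 and the Mettl21a probes were 0.29 and 0.52. Leaving out 1 array gave 4454 to 5563 probes, 3 to 6 relatives, 2 to 5 substrates (5 without AR113Q replicate 2), 7 to 11 cofactors and 0 to 1 slow fiber genes (0 without WT replicates 1 or 4 or AR113Q replicates 1 or 3). The cause of these shifts was not tested.

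The labels do not say whether replicate numbers pair the samples. Deviations of same-numbered arrays correlated at 0.040, -0.015 and 0.16, and those of arrays with different numbers at -0.17 to 0.12. With the replicate number as a block 5190 probes were called, and Mettl21c was -4.90 and Vcp 0.75. Dim probes are limited by background, with Mettl21e, Camkmt, Nvl and Sprtn not well above it on some arrays.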
